A study of Rattus norvegicus with 16 samples.

Results

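The comparison described here is that of injured rats given 1 of 3 drugs with uninjured rats, in the whole hippocampus. It holds 13 of the 16 arrays of the series: the 8 arrays titled TBI+PMI, TBI+JM6 and TBI+E33 against the 5 arrays titled Naïve and Sham, chosen by title alone. The 3 arrays titled TBI, from injured rats that got no drug, were used to ask, gene by gene, which responses to injury were also present under all 3 drugs. TBI is traumatic brain injury, here a severe fluid percussion injury, in which a pulse of fluid strikes the surface of the brain.

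All animals were Sprague-Dawley rats of the same strain, and the methods describe adult males. Naïve rats (n = 3) were neither anaesthetized nor injured. Sham rats (n = 2) were anaesthetized and prepared for the injury but not injured. TBI rats (n = 3) were injured, and TBI+PMI (n = 3), TBI+JM6 (n = 3) and TBI+E33 (n = 2) rats were injured and then given the named drug. JM6 inhibits kynurenine 3-monooxygenase, an enzyme of tryptophan breakdown. PMI is the experimental compound that the methods call PMI-006, and E33 is 17β-estradiol, the main oestrogen. JM6 and PMI were given by mouth. For estradiol the labels give injection under the skin and the methods give injection into the abdomen. Hippocampi were taken 24 h after injury, or at the equivalent time. The sources used here do not state whether the TBI rats of these arrays got a vehicle, so drug and the act of dosing cannot be told apart. Nor do they state which of 2 amplification kits was used for which rat. Nothing in the labels says whether rats of a group shared more than their treatment, so p-values measure only the spread between these rats.

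After a blow to the brain, damaged cells release signals that drive microglia and astrocytes into a reactive state. Chemokines draw neutrophils and monocytes from the blood. Cytokines pass signals among these cells, those of the interleukin-6 family through receptors that use STAT3. Astrocytes switch on intermediate filaments, protease inhibitors and acute-phase proteins. Dividing microglia and astrocytes switch on the genes of DNA replication. In the hippocampus these events accompany the loss of neurons that serve memory.

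Each array gave 1 intensity per probe, and values are printed here as log2 of the intensity after quantile normalization, which gives all arrays the same distribution. A difference of 1 on this scale is a 2-fold difference. A response counted as called when its p, adjusted by the Benjamini-Hochberg method, was under 0.05 in 1 limma fit over all 22827 probes tested. The uninjured level is the mean of the Naïve and Sham group means, and the drug-treated level is the mean of the 3 drug group means. Levels of different genes cannot be compared, since each probe has its own brightness.

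The arrays lay on 4 slides of 4 arrays, scanned in 2 sessions. All drug-treated arrays were in one session and all uninjured and TBI arrays in the other, so drug treatment and session cannot be told apart in any comparison of the drug groups with uninjured or TBI rats. In the drug session 20259 to 24984 probes an array were well above background, and in the other session 16282 to 18245. TBI vs. uninjured lies within one session, but the TBI arrays shared their slide only with Naïve 3. The 3 drug groups lie within one session, but not on the same slide. All TBI+PMI arrays and TBI+JM6 1 shared a slide, and TBI+JM6 2, TBI+JM6 3 and both TBI+E33 arrays shared another. Drug and slide therefore cannot be told apart in TBI+E33 vs. TBI+PMI, and only in part in the other drug pairs. TBI 1 stood apart from TBI 2 and TBI 3: it was the lowest of the 11 injured arrays on 392 of the 610 probes (64.3%) that were called higher in TBI and in each drug group. Markers of the choroid plexus, a tissue next to the hippocampus, averaged 11.69 on TBI+PMI 1, 11.23 on Sham 1 and 10.09 on Naïve 2, and 5.20 to 7.10 on the other 13 arrays.

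Several markers of brain cells were bright, and markers of the hippocampus were seen in part. Snap25, a synaptic protein, had a mean of 14.50 in uninjured, 14.09 in TBI and 14.32 in drug-treated rats. The astrocyte water channel Aqp4 had 13.51, 13.35 and 13.45, and the myelin gene Mbp 16.47, 16.35 and 16.76. None of the 3 was called in TBI or drug-treated vs. uninjured rats. Other members of the neuronal, astrocyte and myelin marker lists were called, as given below. Rbfox3, another neuronal marker, was well above background on 2 of 5 uninjured, 0 of 3 TBI and 5 of 8 drug-treated arrays. Of the hippocampal markers, C1ql2 of the dentate gyrus had 11.79 in uninjured rats, while Prox1 was well above background on 1 of 5 uninjured arrays. C1ql2 was called lower in TBI (-1.58), a call lost in 9 of 32 other analyses. Its drug-treated minus uninjured difference was -1.33 to -0.46 over all analyses run.

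In TBI vs. uninjured rats 899 probes (3.95% of those tested) were called higher and 535 (2.35%) lower. In drug-treated vs. uninjured rats 5591 (24.5%) were called higher and 6387 (28.0%) lower, and 2662 (11.7%) and 3040 (13.3%) were called so in each of the 3 drug groups. The split of the drug comparison depended on the scaling. With the scaling of the methods, by each array's 75th percentile over bright probes, 17615 probes were called higher and 296 lower in drug-treated than in uninjured rats, and 13565 and 47 in each drug group. With the 75th percentile of all probes they were 9316 and 5281, and 6086 and 3063. With the authors' own normalized values they were 5698 and 5902, and 2707 and 2674. In TBI vs. uninjured rats normexp background correction gave 966 higher of 1867 called. Since the drug comparisons coincide with the session, and since they and the TBI comparison share the 5 uninjured arrays, a shared call is a description of these arrays, with no test of the overlap.

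Most responses that rose with injury were also present under all 3 drugs, and fewer of those that fell were. Of the 899 probes higher in TBI, 610 (67.9%) were called higher in each of the 3 drug groups vs. uninjured, 97 in 2 drug groups, 61 in 1 and 131 (14.6%) in none. These 610 probes are 2.68% of all tested, and their named members are 321 of the 504 named genes called higher in TBI. Of the 535 probes lower in TBI, 200 (37.4%) were called lower in each drug group, which is 0.878% of all tested, and 212 (39.6%) in none. They hold 162 of the 424 named genes called lower in TBI. The lower set depended on the processing: with the scaling of the methods 802 probes persisted higher and 21 lower, and with normexp 511 and 393. The authors' own normalized values gave 728 and 198.

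**Figure D1:**
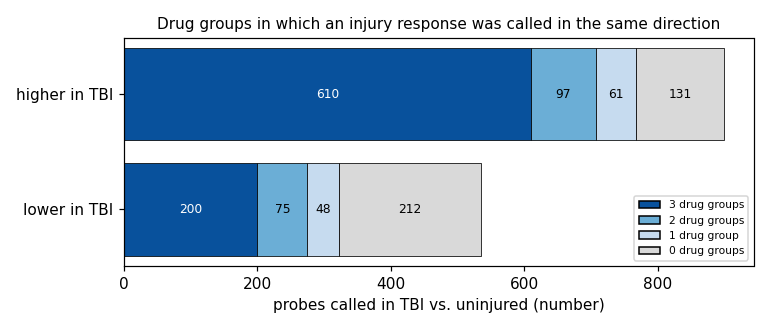
Probes called higher (upper bar) or lower (lower bar) in TBI vs. uninjured rats, split by the number of drug groups in which they were called in the same direction vs. uninjured rats; the horizontal axis is the number of probes. All 3 drug groups held 610 of 899 probes higher in TBI and 200 of 535 lower in TBI.

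Over the 899 probes higher in TBI, the median difference from uninjured rats was 1.11 in TBI, 1.02 in TBI+PMI, 1.17 in TBI+JM6 and 1.26 in TBI+E33 rats. Over the 535 probes lower in TBI it was -0.80, -0.64, -0.47 and -0.48. The TBI medians are those of probes chosen by their TBI value, so they are not comparable one for one with the drug medians. Over all probes tested the medians were -0.06, -0.02, -0.02 and -0.03. Drug-treated and TBI rats were then compared directly. Over all probes 3954 (17.3%) were called higher and 3915 (17.2%) lower in drug-treated than in TBI rats, but with the scaling of the methods 17299 were called higher and 36 lower. With the authors' own normalized values 3862 were called higher and 3828 lower. Of the 610 probes higher in TBI and in each drug group, 479 were not called in this comparison, 128 were called still higher in drug-treated rats and 3 were called lower. Of the 200 lower ones, 158 were not called, 41 were called still lower and 1 higher. A probe that was not called is not thereby shown to be equal, and intervals are given below for the named genes.

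The counts depended on single arrays of the TBI group and on which arrays were fitted together. Without TBI 2 the persisting probes were 92 higher and 9 lower, without TBI 3 they were 100 and 16, and without TBI 1, the array with the smallest changes, 1034 and 547. Without Sham 1 they were 167 and 32. All groups shared their estimate of spread in the fit. In fits of only the arrays compared, 54 probes were called in TBI vs. uninjured, and 23 persisted higher and 6 lower. Without TBI+E33 1, an array outside TBI vs. uninjured, 755 probes were called in TBI. The methods' t-test after adjustment called 0. With the slide as a fixed block, which leaves Naïve 3 as the 1 uninjured array on the slide of the TBI rats, 24 probes were called in TBI vs. uninjured, and the TBI call of each of 84 named genes tested so was lost.

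The largest persisting rises included acute-phase and glial genes. Lcn2 encodes lipocalin 2, an iron-binding protein of neutrophils and reactive astrocytes. Its level was 6.50, 8.24 and 7.35 in Naïve rats and 7.19 and 7.07 in Sham rats, against 12.15, 15.00 and 15.23 in TBI rats. In the 8 drug-treated rats it ran from 13.09 to 14.84 with a median of 14.37. All 11 injured rats, treated or not, lay far above all 5 uninjured ones. The difference from uninjured rats was 6.88 ± 0.65 (SE) in TBI (118-fold, adjusted p = 0.00129) and 7.07 ± 0.51 in drug-treated rats (134-fold, adjusted p = 3.01e-06). With the slide as a fixed block the TBI difference was 6.89 and was not called (adjusted p = 0.312). The drug-treated minus TBI difference was 0.19, with a 95% interval from -1.11 to 1.49. The Lcn2 probe lies at chr3:11511592-11511651 on the minus strand in rn4, the rat build of the array files.

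Hspb1 encodes HSP27, a small heat shock protein that reactive astrocytes make. It had 9.74, 10.61 and 9.61 in Naïve, 9.98 and 10.73 in Sham and 14.42, 15.17 and 15.51 in TBI rats. Drug-treated rats had 14.49 to 16.02, with a median of 15.09. Uninjured and injured rats did not overlap, as the choice of genes required, and TBI 1 was again the lowest of the TBI rats. The difference was 4.87 ± 0.40 in TBI (adjusted p = 0.000778) and 4.92 in drug-treated rats, and drug-treated minus TBI was 0.05 (95% interval -0.74 to 0.85). Hspb1 and Hspa2 were the 2 of 18 heat shock genes tested that were called higher in TBI, and both were called higher in each drug group. Hspa2 rose by 0.90 in TBI and 1.30 in drug-treated rats.

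Timp1, an inhibitor of matrix proteases, had 7.81, 9.16 and 7.59 in Naïve, 7.97 and 9.84 in Sham and 11.24, 13.34 and 13.37 in TBI rats. Drug-treated rats had 12.98 to 13.57, with a median of 13.26. TBI 1 lay below all drug-treated rats and above all uninjured rats. Timp1 rose by 4.11 in TBI (17.2-fold, adjusted p = 0.00431) and by 4.72 in drug-treated rats (26.3-fold). Plau, the urokinase protease that starts plasmin formation, was the other of the 19 protease genes tested that was called higher in TBI. It was well above background on 0 of 5 uninjured arrays and on all injured ones, at least 3.08-fold higher in TBI and 3.85-fold higher in drug-treated rats.

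Further genes of phagocytes showed the same arrangement. Lgals3, galectin 3 of activated microglia and macrophages, had 6.40 to 9.24 in uninjured rats, 10.46, 13.50 and 12.91 in TBI rats and 12.38 to 13.32 in drug-treated rats. Its difference was 4.27 ± 0.64 in TBI and 4.99 ± 0.50 in drug-treated rats. Cd14, a co-receptor for bacterial lipopolysaccharide, had 6.57 to 8.33 in uninjured, 10.32, 11.41 and 11.11 in TBI and 10.73 to 12.46 in drug-treated rats. For both genes the uninjured and injured rats did not overlap, as the choice of genes required. Gpnmb, a glycoprotein of phagocytes, had 8.94 to 10.01, then 10.58, 12.80 and 12.72, then 11.82 to 13.14 in the 3 sets of rats. S100a9, a calcium-binding protein of neutrophils, had 5.92 to 7.36, then 8.15, 11.60 and 10.72, then 8.88 to 11.43. Sham 2 was the highest uninjured rat for Lgals3, Timp1, Cd14 and Gpnmb.

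Cd44, the hyaluronan receptor of reactive astrocytes and leukocytes, varied little among uninjured rats. It had 8.28 to 8.70 in uninjured, 10.65, 11.82 and 11.73 in TBI and 11.07 to 11.99 in drug-treated rats. It rose by 2.87 ± 0.26 in TBI and by 3.11 ± 0.21 in drug-treated rats, and drug-treated minus TBI was 0.24 (95% interval -0.29 to 0.76). The other Cd44 probes tested disagreed with this one: one had 0.96 in TBI and 2.39 in drug-treated rats, and the other 1.03 and -0.01. Other large rises were in Tubb6, a β-tubulin (3.54 in TBI and 4.57 in drug-treated rats), Sdc1, a heparan sulphate proteoglycan (3.28 and 4.13), and the imprinted non-coding RNA H19 (3.98 and 3.95). Igsf7 l1, a gene that RefSeq names after an immunoglobulin superfamily member, rose by 4.85 and 5.70, and was above background on 3 of 5 uninjured arrays. TBI 1 was the lowest injured rat for each of these 4 genes.

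**Figure D2:**
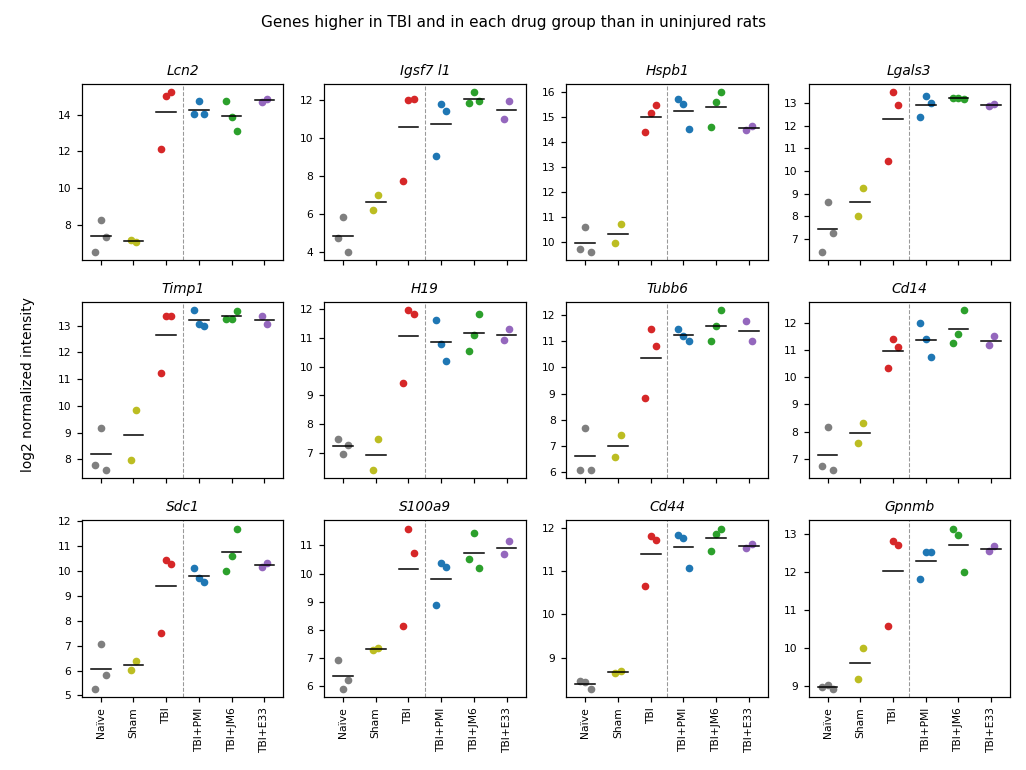
Log2 normalized intensity (vertical axes) of 12 genes on each array, by group; points are rats, black lines are group means, and the dashed line parts the scan sessions. For each gene the 11 injured rats lie above the 5 uninjured rats, as the choice of genes required, and TBI 1 is the lowest TBI rat.

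In 5 genes the uninjured level was mostly below what the array could measure, so only a lower bound of the rise is known. The chemokines Ccl2 and Ccl7, which attract monocytes, were well above background on 2 of 5 uninjured arrays each. Ccl2 had 4.53 to 6.89 in uninjured rats, 11.36, 12.45 and 11.95 in TBI rats and 11.11 to 13.51 in drug-treated rats. With dim arrays raised to the lowest signal above background, Ccl2 was at least 64.0-fold higher in TBI and 66.4-fold higher in drug-treated than in uninjured rats (adjusted p = 0.00219 and 5.41e-06). Ccl7 was at least 54.6-fold and 56.3-fold higher. The drug-treated minus TBI difference was 0.05 for both, with intervals of -1.27 to 1.37 and -1.46 to 1.55.

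Spp1, osteopontin, a matrix protein made by activated microglia, was at least 86.2-fold higher in TBI and 65.7-fold higher in drug-treated rats. Serpina3n, an acute-phase protease inhibitor of reactive astrocytes, was at least 74.9-fold and 143-fold higher. Its level was 3.36 to 3.62 in 4 uninjured rats and 7.67 in Sham 2, against 10.64, 12.82 and 13.34 in TBI and 12.59 to 14.58 in drug-treated rats. Slpi, an inhibitor of neutrophil elastase, was at least 14.2-fold higher in TBI and 29.1-fold higher in drug-treated rats. Spp1 was well above background on 2 uninjured arrays, and Serpina3n and Slpi on 1 each.

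Promoters are shown for 4 of these genes because the genes moved together and carry different motifs. RefSeq promoters (GRCr8, from 250 bases before to 50 bases after the start) were found for 18 of the 25 persisting genes named here. A STAT motif (TTCNNNGAA) was in 2 of the 18 and in 8.87% of all 33469 promoters, an AP-1 motif (TGANTCA) in 2 of 18 and 7.33%, and a loose NF-kappaB motif (GGG and CC with any 5 bases between) in 13 of 18 and 47.3%, on either strand. The 18 include genes that fell: of these Gpc3, Slc25a18, Tlcd1 and Tp53bp2 held NF-kappaB motifs, and Btbd17 and Lbhd2 held no motif. Spp1 and S100a9, which rose, held none of the 3 motifs. Capitals mark the motifs. The Ccl7 promoter (chr10:67513845-67514144, plus strand) held all 3, with the AP-1 motif 73 and the NF-kappaB motif 59 bases before the start. Serpina3n (chr6:129088142-129088441, plus strand) held STAT and NF-kappaB motifs, Gpnmb (chr4:79340878-79341177, plus strand) an AP-1 motif, and Lcn2 (chr3:36081731-36082030, minus strand) NF-kappaB motifs.
Ccl7: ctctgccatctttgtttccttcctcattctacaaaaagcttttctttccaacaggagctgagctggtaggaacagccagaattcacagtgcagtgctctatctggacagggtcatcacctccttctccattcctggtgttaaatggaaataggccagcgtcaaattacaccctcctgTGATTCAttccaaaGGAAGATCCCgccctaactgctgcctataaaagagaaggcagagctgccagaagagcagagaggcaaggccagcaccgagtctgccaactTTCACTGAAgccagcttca
Serpina3n: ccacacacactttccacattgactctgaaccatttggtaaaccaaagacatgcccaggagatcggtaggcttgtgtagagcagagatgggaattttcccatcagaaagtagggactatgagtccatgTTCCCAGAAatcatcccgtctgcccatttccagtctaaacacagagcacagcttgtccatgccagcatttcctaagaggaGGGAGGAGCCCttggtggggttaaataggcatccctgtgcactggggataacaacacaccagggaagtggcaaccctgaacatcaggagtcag
Gpnmb: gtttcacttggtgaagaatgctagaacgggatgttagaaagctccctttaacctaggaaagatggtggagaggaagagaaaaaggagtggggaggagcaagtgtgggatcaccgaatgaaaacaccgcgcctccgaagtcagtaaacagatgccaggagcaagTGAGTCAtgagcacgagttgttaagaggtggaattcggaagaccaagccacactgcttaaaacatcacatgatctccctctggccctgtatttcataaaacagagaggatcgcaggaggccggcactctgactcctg
Lcn2: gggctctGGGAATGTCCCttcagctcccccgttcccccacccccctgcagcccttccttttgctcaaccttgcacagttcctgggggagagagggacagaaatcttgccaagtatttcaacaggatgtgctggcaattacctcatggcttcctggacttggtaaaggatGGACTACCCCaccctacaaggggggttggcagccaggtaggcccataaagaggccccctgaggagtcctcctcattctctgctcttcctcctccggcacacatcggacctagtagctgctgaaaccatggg
A match of letters says nothing of whether a factor bound there.

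Gene lists gave the wider picture. They are described by counts and medians, beside the same over all probes tested, where 3.95% were called higher in TBI and 2.68% in TBI and in each drug group.

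Signals and their receptors came first. Of 22 chemokines tested, 7 were called higher in TBI and 5 of these in each drug group. Their median difference was 1.31 in TBI, 1.64 in TBI+PMI, 1.56 in TBI+JM6 and 1.80 in TBI+E33 rats. Beside Ccl2 and Ccl7 the 5 were Cxcl1, Ccl3 and Cxcl16. Cxcl1, which attracts neutrophils, was not well above background in any uninjured rat, and its bound was 5.45-fold in TBI and 4.12-fold in drug-treated rats. Its levels were 7.32, 8.52 and 7.54 in TBI rats and 6.15 to 9.19 in drug-treated rats. Ccl4, which draws monocytes and T cells, was called in TBI, TBI+JM6 and TBI+E33 but not in TBI+PMI rats. Ccl4 lost its TBI call in 16 of 31 other analyses. Ccl22 was called higher in TBI and in no drug group, but it was above background on no uninjured and no TBI array, so it has no measured level there.

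Of 22 cytokine genes tested, 9 were called higher in TBI and 6 of these in each drug group. Il1b, which encodes interleukin-1β, was above background on no uninjured array and on 2 of 3 TBI arrays. Its values were 4.36, 7.44 and 6.82 in TBI rats and 6.22 to 8.09 in drug-treated rats, so that TBI 1 was below all drug-treated rats. Il1b was at least 1.82-fold higher in TBI and 3.16-fold higher in drug-treated than in uninjured rats, and its TBI call was lost in 18 of 31 other analyses of the same data. Il1rn, the antagonist that blocks its receptor, was above background on 2 of 5 uninjured arrays, and its level was at least 4.18-fold higher in TBI and 5.99-fold higher in drug-treated rats. Tnfrsf12a, the receptor of the cytokine TWEAK, rose by 2.67 and 3.26. Tnf, tumour necrosis factor, was not among the 6: it had 7.57, 7.60 and 7.59 in TBI rats and 6.46 to 7.30 in drug-treated rats, and it was called higher than uninjured in TBI, TBI+PMI and TBI+JM6 but not in TBI+E33 rats. It was above background on 2 of 5 uninjured arrays, and its level was at least 3.5-fold higher in TBI and 2.04-fold higher in drug-treated rats. Each drug-treated rat had less Tnf than each TBI rat, but the difference of -0.78 was not called (adjusted p = 0.11, 95% interval -1.56 to 0.00).

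Of 17 JAK-STAT genes tested, 4 were called higher in TBI and 3 of these, Stat3, Socs3 and Bcl3, in each drug group. These 3 were also called higher in drug-treated than in TBI rats, as were 17.3% of all probes. Stat3, the factor that interleukin-6 family receptors use, had 6.25 to 7.26 in uninjured rats, 7.89, 8.33 and 8.49 in TBI rats and 8.84 to 9.55 in drug-treated rats, in 3 sets that did not overlap. It rose by 1.47 in TBI (adjusted p = 0.00634) and 2.38 in drug-treated rats, and drug-treated minus TBI was 0.92 (adjusted p = 0.00495). Socs3, the inhibitor that STAT3 induces, was above background on 1 of 5 uninjured arrays, and its level was at least 2.87-fold higher in TBI and 8.19-fold higher in drug-treated rats. Bcl3, a partner of NF-kappaB, was above background on 2 of 5 uninjured arrays, and its level was at least 3.95-fold and 7.38-fold higher. Drug-treated minus TBI was 1.51 for Socs3 (adjusted p = 0.0131) and 0.90 for Bcl3 (adjusted p = 0.0339). The TBI call of Socs3 was lost in 16 of 31 other analyses. Whether the session had a part in the further rise of Stat3, Socs3 and Bcl3 was not tested.

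Of 29 reactive astrocyte genes tested, 16 were called higher in TBI and 15 of these in each drug group, the exception being Osmr, which was not called in TBI+E33 rats. Osmr lost its TBI call in 19 of 31 other analyses. The median over the list was 1.90 in TBI, 2.18 in TBI+PMI, 2.25 in TBI+JM6 and 2.14 in TBI+E33 rats. Gfap, the main intermediate filament of astrocytes, had 10.28 to 10.38 in Naïve rats, 12.89 and 11.52 in Sham rats and 12.52, 12.86 and 12.77 in TBI rats. Drug-treated rats had 13.71 to 15.29, above every other rat, while Sham 1 was as high as the TBI rats. Gfap rose by 1.45 in TBI (2.73-fold, adjusted p = 0.0332) and by 3.48 in drug-treated rats (11.1-fold, adjusted p = 3.98e-06), and drug-treated minus TBI was 2.02 (95% interval 1.35 to 2.70, adjusted p = 0.000763). Against Sham rats alone the TBI difference of Gfap was 0.51 and was not called (adjusted p = 0.46), and against Naïve rats alone it was 2.39 (adjusted p = 0.00807). Vim, another such filament, rose by 1.99 and 2.95, with a drug-treated minus TBI difference of 0.96 that was not called (adjusted p = 0.0635). The sphingosine-1-phosphate receptor S1pr3 was above background on 1 of 5 uninjured arrays, and its level was at least 3.66-fold higher in TBI and 7.38-fold higher in drug-treated rats, and was called higher in drug-treated than in TBI rats (1.01, adjusted p = 0.00449). The astrocyte marker list, 12 genes with Gfap among them, had medians of -0.29 in TBI and -0.44 in drug-treated rats, and 4 of its genes were called lower in each drug group.

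**Figure D3:**
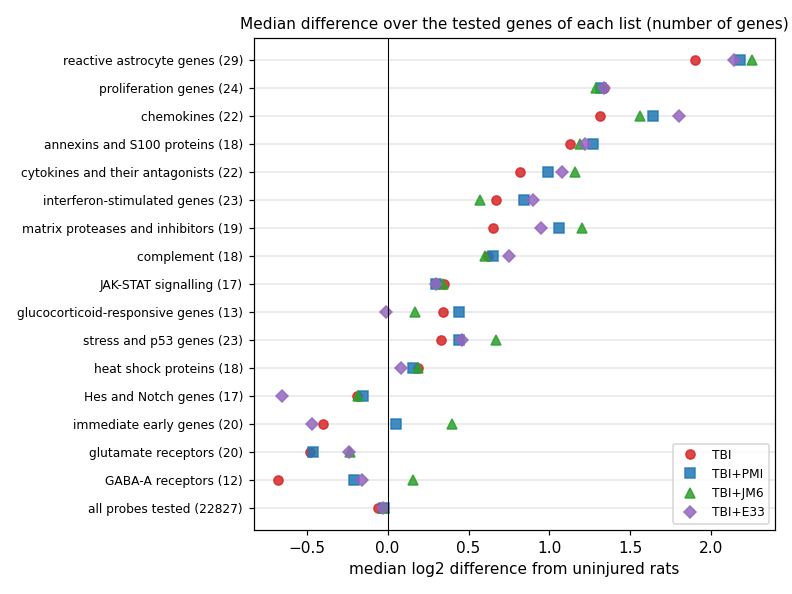
Median log2 difference from uninjured rats (horizontal axis) over the tested genes of each list, with the number of genes in brackets; each symbol is the median in TBI or in 1 drug group, and the lowest line gives all probes tested. For reactive astrocyte genes the medians were 1.90 in TBI and 2.14 to 2.25 in the drug groups, against -0.06 and -0.03 to -0.02 over all probes.

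Of 24 proliferation genes tested, 12 were called higher in TBI and 9 of these in each drug group, and the median was 1.34 in TBI, 1.32 in TBI+PMI, 1.29 in TBI+JM6 and 1.34 in TBI+E33 rats. Mcm3, a subunit of the replicative helicase, had 5.77 to 6.78 in uninjured, 8.04, 9.39 and 9.24 in TBI and 7.95 to 9.44 in drug-treated rats, with no overlap between uninjured and injured rats. It rose by 2.56 in TBI and 2.49 in drug-treated rats. The helicase subunit Mcm5, above background on 1 of 5 uninjured arrays, was at least 5.31-fold and 4.5-fold higher. Rrm2, which makes deoxynucleotides, rose by 2.53 and 2.08, and the mitotic kinase Cdk1 by 2.30 and 2.09. Cdk1 lost its TBI call in 13 of 32 other analyses. The 95% intervals of drug-treated minus TBI were -0.94 to 0.79 for Mcm3 and -1.34 to 0.92 for Cdk1. Tk1, Ccnb1 and Mcm7 were called in TBI but not in every drug group.

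Of 16 markers of blood leukocytes tested, 6 were called higher in TBI and 5 of these in each drug group. The mean over the list was 5.23 to 6.01 in uninjured, 6.23 to 7.39 in TBI and 6.67 to 7.59 in drug-treated rats. Ptprc, the pan-leukocyte antigen CD45, rose by 1.59 in TBI and 1.43 in drug-treated rats. S100a8, the partner of S100a9 in neutrophils, was above background on 1 of 5 uninjured arrays, and its level was at least 12.5-fold higher in TBI and 12-fold higher in drug-treated rats. TBI+JM6 2 was left out of its fit because of a poor spot. The T cell gene Cd3d rose by 0.63 in TBI with 0.29 in drug-treated rats, where no drug group was called. Ms4a6a, a membrane protein of monocytes and macrophages, rose by 2.01 and 2.58. Markers of blood in the tissue did not follow: the red cell list averaged 10.41 to 11.91 in uninjured, 9.63 to 11.53 in TBI and 9.99 to 12.06 in drug-treated rats, and none of its 4 genes was called in TBI. In such tissue more cells of a type and more RNA per cell cannot be told apart. The part of leukocytes in the rise of chemokines and S100 proteins was not tested.

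Microglial genes split in 2 directions. Of 16 tested, Cd68, Tyrobp, Itgam and C1qc were called higher in TBI and Tmem119 lower, while the mean over the list was 10.56 to 10.83 in uninjured, 10.73 to 10.87 in TBI and 10.13 to 10.78 in drug-treated rats. Cd68, a lysosomal protein of phagocytes, rose by 2.15 in TBI and 2.50 in drug-treated rats, and Itgam, the integrin CD11b, by 1.10 and 0.89. Tyrobp, the adaptor of TREM2, rose by 1.34 and 0.99. These 3 were called in each drug group. C1qc, a subunit of the first complement component, rose by 1.04 in TBI and had 0.44 in drug-treated rats, where no drug group was called. C1qc lost its TBI call in 13 of 32 other analyses. Tmem119, a marker of resting microglia, fell by 1.58 in TBI and by 1.71 in drug-treated rats, and the purinergic receptor P2ry12, another such marker, was not called in TBI (-0.83, adjusted p = 0.0765) but was called lower in each drug group.

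Other lists of the injury response were smaller. Of 18 complement genes tested, 4 were called higher in TBI and 3 of these in each drug group: the anaphylatoxin receptor C5ar1 (2.40 in TBI and 2.73 in drug-treated rats), the receptor C3ar1 (at least 2.53-fold and 2.23-fold higher) and the C1 inhibitor Serping1 (2.03 and 2.67, where TBI 3 was left out because of a poor spot). Of 23 interferon-stimulated genes, 4 were called higher in TBI, and Ifitm3 (2.10 and 2.44), Gbp2 (1.72 and 2.20) and Irf9 (0.72 and 0.79) also in each drug group. Of 23 stress and p53 genes, 4 were called higher in TBI, and the haem-degrading enzyme Hmox1 (2.72 and 2.83), metallothionein Mt2A (1.88 and 2.20) and the growth arrest gene Gadd45a (1.66 and 2.10) also in each drug group.

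Of 18 annexin and S100 genes, 7 were called higher in TBI, and all 7 in each drug group. Among them S100a4 rose by 2.40 and 2.56. One member of the list, S100a1, was called lower in TBI and in each drug group, and it fell by 0.50 and by 1.01. Of 20 immediate early genes 1, the AP-1 subunit Fosl1, was called higher in TBI. It was above background on no uninjured array and on all 11 injured ones, at least 3.77-fold higher in TBI and 2.60-fold higher in drug-treated rats. Of 13 glucocorticoid-responsive genes tested, Cebpd (1.75 in TBI and 1.74 in drug-treated rats) and Mt2A rose and Tsc22d3, the leucine zipper GILZ, fell (by 0.62 and by 1.03), in TBI and in each drug group. For Tsc22d3 the TBI call was lost in 15 of 32 other analyses. Nrarp, a feedback inhibitor of Notch signalling, was the 1 of 17 Hes and Notch genes called in TBI, and it fell by 0.87 and by 1.13.

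Persisting falls were smaller than persisting rises. Slc25a18, a mitochondrial glutamate carrier, had 10.49 to 11.82 in uninjured, 9.88, 9.42 and 9.57 in TBI and 8.50 to 9.83 in drug-treated rats, with no overlap between uninjured and injured rats. It fell by 1.45 in TBI (2.73-fold lower, adjusted p = 0.0131) and by 1.82 in drug-treated rats (3.54-fold lower). Its second probe gave -1.44 and -0.82. Tlcd1, a membrane protein, had 10.18 to 10.70, then 9.55, 8.74 and 8.97, then 7.61 to 8.53. It was lower still in drug-treated than in TBI rats, by -0.90 (adjusted p = 0.00371). Nkain4, a partner of the sodium pump, behaved likewise: it fell by 1.19 in TBI and by 2.05 in drug-treated rats, with a difference of -0.86 (adjusted p = 0.0222). With the scaling of the methods the TBI and drug-treated differences from uninjured rats were -1.37 and -1.40 for Tlcd1 and -1.22 and -1.45 for Nkain4.

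Btbd17 had the largest persisting fall in drug-treated rats of the genes named here. It had 10.78 to 11.47 in uninjured rats, 10.41, 8.55 and 9.02 in TBI rats and 7.49 to 9.26 in drug-treated rats. TBI 1 lay nearer to the uninjured rats than to TBI 2. Its difference from uninjured rats was -1.79 ± 0.48 in TBI (adjusted p = 0.0468) and -2.51 ± 0.38 in drug-treated rats. The TBI call was lost in 19 of 32 other analyses. Lbhd2 was 4.01-fold lower in TBI and 3.75-fold lower in drug-treated rats, and Gpc3, a heparan sulphate proteoglycan of the cell surface, fell by 1.27 and by 1.89. Tp53bp2, which binds p53, fell by 1.32 and by 1.57. Tmem119, described among microglial genes, had 8.78 to 9.76 in uninjured, 7.97, 7.06 and 8.27 in TBI and 6.30 to 8.34 in drug-treated rats, and its second probe gave -1.40 in TBI, without a call, and -1.88 in drug-treated rats. The first probe of Tmem119 lost its TBI call in 14 of 32 other analyses. All 11 injured rats lay below all uninjured rats for each of the 8 genes, which the choice of genes required. Such a gap held for 158 of the 200 persisting lower probes and for 3.21% of all probes tested.

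**Figure D4:**
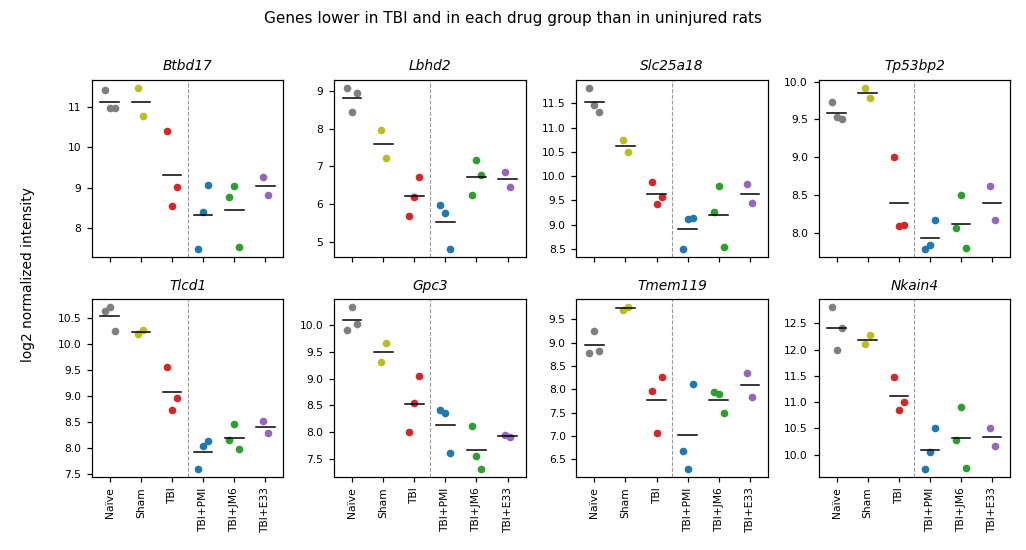
Log2 normalized intensity (vertical axes) of 8 genes on each array, by group; points are rats, black lines are group means, and the dashed line parts the scan sessions. For each gene the 11 injured rats lie below the 5 uninjured rats, as the choice of genes required. For Tlcd1 and Nkain4 the 8 drug-treated rats lie below the TBI mean.

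Of 16 neuronal markers tested, 3 were called lower in TBI and all 3 in each drug group, beside 2.35% and 0.878% of all probes. Tubb3, a neuronal β-tubulin, fell by 0.75 in TBI and by 0.64 in drug-treated rats. Nefm, a neurofilament, fell by 0.70 and by 0.93, and Gad1, which makes GABA, by 0.57 and by 0.78. Their TBI calls were lost in 9, 16 and 17 of 32 other analyses, and with the scaling of the methods Tubb3 (-0.14) and Gad1 (-0.23) were not called in drug-treated rats. The list mean was 10.80 to 11.41 in uninjured, 10.37 to 11.06 in TBI and 10.92 to 11.24 in drug-treated rats. Gabrd, the δ subunit of GABA-A receptors, was the 1 of 12 such genes called lower in TBI (-1.18, adjusted p = 0.0493, lost in 18 of 32 other analyses), and it was lower in each drug group, by -1.56 over the 3. Of 20 glutamate receptor genes, Grin2b (-1.41) and Grm7 (-0.49) were called lower in TBI and neither in each drug group. The TBI calls were lost in 18 of 31 other analyses for Grin2b and in 28 of 32 for Grm7. Grin2b was above background on no TBI array, so its fall there is known only as at least 1.63-fold. In drug-treated rats Grin2b had -0.83 and Grm7 -0.21, but with the scaling of the methods these were 0.90 and 0.77, so their direction was not settled. The myelin gene Cnp fell by 0.91 in TBI and was called lower in TBI+PMI and TBI+JM6 but not in TBI+E33 rats (-0.54). Cnp lost its TBI call in 14 of 32 other analyses.

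A smaller set of injury responses was displaced the other way in all 3 drug groups. A probe was counted here when it was called in TBI vs. uninjured and called in the opposite direction in each drug group vs. TBI. This held for 136 probes (0.597% of those tested): 32 of 899 higher in TBI (3.56%) and 104 of 535 lower in TBI (19.4%). The count ran from 11 without TBI 3 to 813 without TBI 1, of which 209 were higher in TBI. With the scaling of the methods it was 488, of which 0 were higher in TBI. With the authors' own normalized values it was 143, of which 44 were higher in TBI. The TBI arrays enter both comparisons, so part of the count follows from choosing probes by their TBI value, and drug-treated and TBI rats lie in different sessions. None of the 136 was also called in each drug group in the direction of the injury.

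Of the genes that rose in TBI and were lower under the drugs, Mthfd2, a mitochondrial folate enzyme, had 8.81 to 9.07 in uninjured rats, 9.81, 10.04 and 10.11 in TBI rats and 9.05 to 9.64 in drug-treated rats. It rose by 1.06 in TBI (adjusted p = 0.00394), and drug-treated minus TBI was -0.79 (adjusted p = 0.000721). With the scaling of the methods the latter was -0.05 and was not called (adjusted p = 0.801). A second Mthfd2 probe was also called higher in TBI but went against this in drug-treated rats, with 1.65 above uninjured and 0.65 above TBI rats. Shmt1, the cytosolic serine hydroxymethyltransferase, had 7.18 to 7.61, then 8.23, 8.50 and 8.51, then 7.34 to 8.02. Slc43a3, a purine transporter, rose by 1.10 in TBI and had 0.12 in drug-treated rats, and Tnni2, a troponin, rose by 1.27 and by 0.39.

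Pla2g12a, a secreted phospholipase, did not separate TBI from all uninjured rats. It had 10.69 and 10.48 on Naïve 1 and Naïve 2 and 9.28 to 9.34 on the other uninjured arrays, against 10.67, 10.50 and 11.27 in TBI and 9.13 to 9.30 in drug-treated rats. Its TBI call was lost in 17 of 32 other analyses. With the scaling of the methods, the drug-treated minus TBI differences of Tnni2, Slc43a3 and Shmt1 turned from -0.88, -0.98 and -0.76 to 0.29, 0.12 and 0.22, none of them called. Under that scaling the median over all probes of drug-treated minus TBI was 0.95. With the authors' own normalized values it was 0.

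Of the genes that fell in TBI and were higher under the drugs, Kcnj4, an inward rectifier potassium channel, had 7.04 to 8.09 in uninjured rats, 6.29, 6.15 and 6.37 in TBI rats and 6.73 to 8.10 in drug-treated rats. Each drug-treated rat had more than each TBI rat. Kcnj4 fell by 1.48 in TBI (adjusted p = 0.0123), and drug-treated minus uninjured was 0.01. Over all analyses run its TBI difference was -1.71 to -0.98, and drug-treated minus TBI was 0.92 to 2.73. With the scaling of the methods the median over all probes of drug-treated minus uninjured was 0.96. How near the drug-treated rats came to the uninjured level thus depended on the analysis. TBI+PMI 1 and TBI+PMI 2 were the lowest drug-treated rats, at 7.09 and 6.73. Tenm4, a teneurin that links neurons, had 8.09 to 8.61, then 7.03, 6.93 and 6.85, then 7.70 to 9.43, and its other probe had -2.65 in TBI and -0.58 in drug-treated rats.

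Sfxn5, a mitochondrial carrier, had 10.94 to 12.49 in uninjured, 10.43, 9.67 and 9.90 in TBI and 10.76 to 12.53 in drug-treated rats. It fell by 1.88 in TBI, and drug-treated minus uninjured was -0.03. Over all analyses run its TBI difference was -2.41 to -1.34, and drug-treated minus TBI was 1.49 to 2.48. Dcn, the matrix proteoglycan decorin, had 9.83 to 10.27, then 7.88, 8.64 and 8.29, then 8.77 to 9.83. It was partly displaced: it fell by 1.71 in TBI and by 0.57 in drug-treated rats. Kcng1, a modifier subunit of potassium channels, had 6.87 on Sham 1, within the range of the TBI rats, and 8.18 to 8.89 on the other uninjured arrays. Drug-treated rats had 8.05 to 9.82, and drug-treated minus uninjured was 1.24 (adjusted p = 0.00755). A second Kcng1 probe had 0.13 in TBI, which was not called, and the TBI call of the first was lost in 20 of 32 other analyses.

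**Figure D5:**
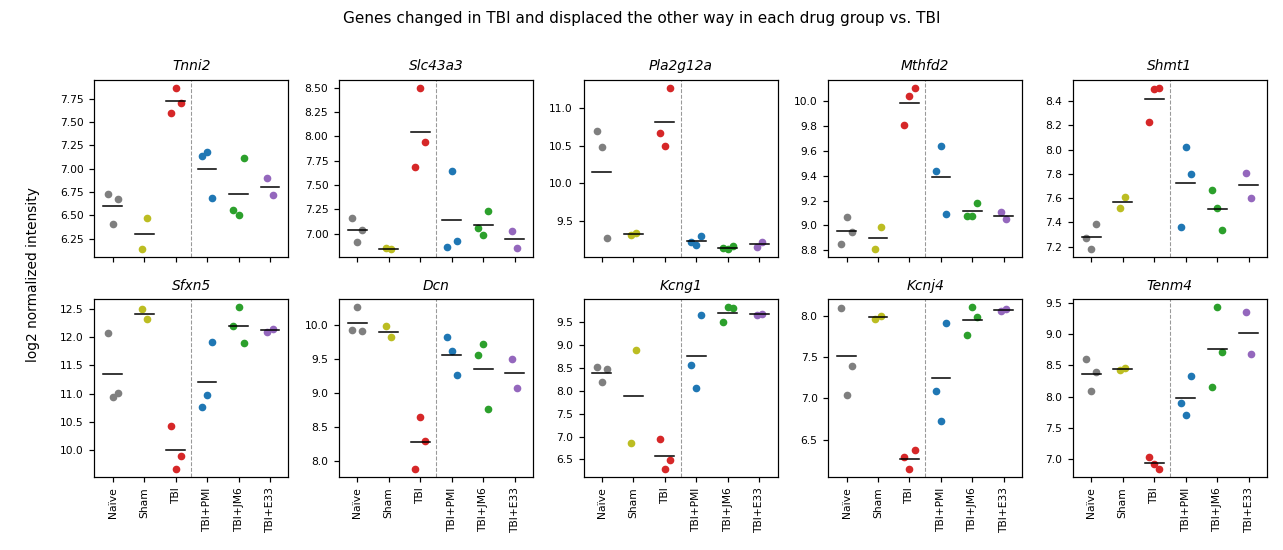
Log2 normalized intensity (vertical axes) on each array, by group, of 5 genes higher in TBI (upper row) and 5 lower in TBI (lower row) that were called in the opposite direction in each drug group vs. TBI; points are rats, black lines are group means, and the dashed line parts the scan sessions. In the lower row the 3 TBI rats lie below the 8 drug-treated rats for each gene.

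Most probes called in the drug groups were not called in TBI, but nor were most of all probes tested. Over all probes tested 3.95% were called higher and 2.35% lower in TBI. Of the probes called in each drug group vs. uninjured, 2040 of 2662 higher and 2837 of 3040 lower were not called in TBI rats. Chga, chromogranin A of secretory granules, had 6.51 to 6.86 in uninjured, 6.45 to 7.07 in TBI and 8.29 to 9.39 in drug-treated rats. The drug-treated rats stood apart from all 8 arrays of the other session. Hmga1, a chromatin protein of dividing cells, had 5.55 to 6.09, then 6.20 to 6.47, then 7.34 to 7.96. Or7g21, an olfactory receptor gene, rose by 2.16 in drug-treated rats and Zc2hc1c by 1.95, and both were above background on 1 of 3 TBI arrays.

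Of the genes that were lower in drug-treated rats alone, Cxadrl1 had 6.47 to 7.29 in uninjured, 6.52 to 6.82 in TBI and 4.24 to 5.17 in drug-treated rats. Dnah8, a dynein heavy chain of cilia, fell by 2.13, and Mettl24 by 2.16, where TBI 2 lay near the drug-treated rats. With the scaling of the methods the drug-treated differences were -0.40 for Cxadrl1, -0.39 for Dnah8 and -0.33 for Mettl24, and the calls of Cxadrl1 and Mettl24 were lost. Chrna5, a nicotinic receptor subunit, fell by 3.41 but spread from 5.83 to 10.60 among uninjured rats. For all 8 genes the change follows the scan session, and the part of the session was not tested.

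No difference between the 3 drugs was called in the analysis used here. In limma 0 probes were called in TBI+JM6 vs. TBI+PMI, in TBI+E33 vs. TBI+PMI, in TBI+E33 vs. TBI+JM6 and in the F test over the 3 groups. At an unadjusted p under 0.05 there were 1642 (7.19% of those tested), 2385 (10.4%), 763 (3.34%) and 1759 (7.71%) probes. With no difference at all a share of 0.05 would be expected. The methods' t-test after adjustment called 0 in each pair as well, and 1255, 2727 and 1218 before it. Other analyses called differences in some pair: 27 probes with the scaling of the methods, 16 with the authors' own normalized values and 92 without TBI+PMI 3. Groups of 2 or 3 rats give wide intervals, and a missing call does not show that the drugs act alike. TBI+PMI and TBI+E33 arrays lay on different slides, so drug and slide cannot be told apart in that pair. Doses differed between the drugs, so their sizes are only set side by side. For Lcn2 the difference from uninjured rats was 7.02 in TBI+PMI, 6.66 in TBI+JM6 and 7.52 in TBI+E33 rats, for Ccl2 it was 6.82, 6.67 and 5.89, and for Slpi 4.64, 6.56 and 6.11. Over the 610 persisting probes the median difference of single rats from the uninjured mean was 0.70 on TBI 1, 1.44 on TBI 2 and 1.33 on TBI 3. It was 1.15 to 1.45 in TBI+PMI, 1.38 to 1.64 in TBI+JM6 and 1.61 and 1.63 in TBI+E33 rats.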

How the data were processed

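Whole hippocampi of 16 rats were each hybridized to 1 one-colour Agilent rat array of 42877 non-control spots, and the deposited scanner files hold a processed intensity per spot from Agilent Feature Extraction, already background-subtracted per the file headers. The authors also deposited a matrix of normalized ratio values, which was used as an alternative. Spots marked as outliers (341 to 1113 an array) were left out, spots of a probe were averaged, and log2 intensities were quantile normalized. Of 30367 probes, the 22827 well above background on all arrays of at least 1 group were tested. RefSeq symbols were found for 20677 probes. The 6 groups were fitted without intercept in limma 3.58.1 (R 4.3.3; 10 residual degrees of freedom), with Benjamini-Hochberg adjustment and a threshold of 0.05. Comparisons were the TBI, drug-treated and single drug groups against the mean of the Naïve and Sham group means, drug-treated against TBI, and drugs against each other. Where a gene was above background on 2 or fewer of the 5 uninjured arrays, a bound was computed by raising each dim array to its lowest signal above background.

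The brightest tested probe stood for each gene. Named genes were the 12 highest and 8 lowest persisting genes without overlap, 5 persisting genes dim in uninjured rats, 5 rising and 5 falling genes that moved back, 4 and 4 called in drug groups only, and up to 4 members a list called in TBI. Ccl3, Ccl22, Cxcl16, Tnf, Vim, S1pr3, Ptprc, Cd3d, S100a1 and P2ry12 were named after their values were seen. Members and lists were chosen with earlier results of these data known. The procedure was tested on simulated data. Of 50 planted persisting changes of 1 on the log2 scale 17 were found as persisting, and 33 of 50 of size 2. Of planted changes in TBI alone, 10 of 50 and 36 of 50 were found as moving back. The changes were planted among 21901 probes simulated as independent, with no session, slide or array effect. The shares found may therefore differ from those on the real arrays. Alternatives changed the scaling, background correction, source of values, filter, uninjured arm, weighting, slide, replicate block, test, threshold and arrays. The number of arrays limits the precision. Results for some genes are not reported here.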

Additional observations from a re-analysis of the deposited data

Results flagged for a closer look

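Of 86 sets of arrays examined for a rat far from the others, 5 had one, and chance alone would mark about 1 set in 20. Serpina3n had 7.67 on Sham 2, against 3.36 to 3.62 on the other uninjured arrays. Gpnmb had 10.01 on the same array, against 8.94 to 9.20. The olfactory receptor gene Or7g21 had 3.21 on Sham 1, against 5.19 to 5.93. On TBI+PMI 1, Igsf7 l1 had 9.04, against 11.02 to 12.42 on the other drug-treated arrays, and Lgals3 had 12.38, against 12.88 to 13.32.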

How the results depend on the processing

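The counts depended on single arrays and on the scaling. With 1 array left out at a time, calls in TBI vs. uninjured ran from 144 (without TBI 2) to 3916 (without TBI 1), against 1434 with all arrays. They were 148 without TBI 3, 285 without Sham 1, 583 without Naïve 1, 755 without either TBI+E33 rat, 808 without Sham 2 and 883 without TBI+PMI 2. Persisting probes ran from 92 to 1034 higher and from 9 to 547 lower, both lowest without TBI 2 and highest without TBI 1. The higher ones were 334 without Naïve 1, 389 without TBI+PMI 2, and 322 and 312 without TBI+E33 1 and 2. Probes that moved back ran from 11 (without TBI 3) to 813 (without TBI 1), calls in each drug group from 2928 to 6126, drug-treated vs. TBI from 4876 to 7885, drug-treated vs. uninjured from 9949 to 12386, and differences among drugs from 0 to 92 (without TBI+PMI 3).

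Scaling to the 75th percentile of probes above background, which raised the median of drug-treated minus uninjured to 0.96, gave 21 persisting lower probes, 488 that moved back, 13612 called in each drug group, 17335 in drug-treated vs. TBI and 27 among drugs. It shared 487 of the 610 persisting higher and 16 of the 200 lower probes. It turned drug-treated minus TBI of Tnni2 (0.29), Slc43a3 (0.12) and Shmt1 (0.22), and drug-treated minus uninjured of Grin2b (0.90) and Grm7 (0.77). Scaling to the 75th percentile of all probes gave 2253 calls in TBI, 991 persisting higher, 363 that moved back, 9149 in each drug group, 9 among drugs and 0.15 for Grin2b. Normexp gave 393 persisting lower and 3 among drugs, and the authors' matrix 16 among drugs. Without a filter there were 770 calls in TBI, 395 and 100 persisting higher and lower and 90 that moved back. With probes above background on all arrays there were 365 persisting lower and 2 among drugs. Against Sham alone 7811 were called in drug-treated rats, 3273 in each drug group and 335 moved back. That analysis shared 359 of the 610 persisting higher and 63 of the 200 persisting lower probes. Against Naïve alone 404 persisted lower and 77 moved back, with 398 of the 610 and 140 of the 200 shared. Pooled arms gave 850 in TBI, 116 persisting lower and 43 that moved back. Fits of only the arrays compared gave 54 in TBI, 23 and 6 persisting, 3 that moved back and 2 among drugs. Slide as a random block gave 4161 in TBI, 1115 and 817 persisting, 539 that moved back and 9 among drugs, and slide as a fixed block 24 in TBI. The methods' t-test gave, before adjustment and over 1.2-fold, 3567 in TBI, 956 and 804 persisting and 3418 among drugs, and after adjustment 0 in TBI (3852 at an unadjusted p under 0.05), 0 persisting in either direction, 0 that moved back and 2956 in each drug group. A 1.5-fold limit left 128 persisting lower.

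The labels do not say whether the replicate number pairs the rats, and correlations in groups of 2 or 3 rats cannot settle it. The median correlation of same-numbered rats' deviations was 0.02 over 36 pairs, 2 of them above 0.1. For rats of different number it was -0.01 over 70 pairs, 4 of them above 0.1. With the replicate block 990 probes were called in TBI, 523 and 109 persisted, 82 moved back and 1 differed among drugs. Over the named genes' comparisons 4781 alternative values kept direction and call, 693 lost the call, 7 gained it and 6 reversed. The cause of these changes was not tested.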
